A study of Mus musculus with 6 samples.

Results

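This section describes 9 genes of retinoid metabolism and signaling in immortalized brown preadipocytes that were pretreated with FGF8 or left untreated and then differentiated. The genes were taken by name from a list of retinoid genes, which was chosen with earlier results of these data known. All 9 were found among the 26264 gene symbols counted in each of the 6 libraries: the retinol receptor Stra6, the retinaldehyde dehydrogenases Aldh1a1, Aldh1a2 and Aldh1a3, the retinoic acid binding proteins Crabp1 and Crabp2, the retinoic acid hydroxylase Cyp26b1, the retinoic acid receptor Rarb and the retinoic acid responder Rarres2, which encodes the adipokine chemerin.

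The cells were mouse brown preadipocytes from the stromal vascular fraction of interscapular brown adipose tissue of wild-type Bl6N mice, immortalized with the SV40 large T antigen. They were kept for 48 h with 5.5 nM FGF8, a paracrine fibroblast growth factor, or without it, and were harvested directly (D0) or after adipogenic differentiation (D3 and D7, the latter after 2 days of induction and 7 days on differentiation medium), in which FGF8-pretreated and untreated cells received the same induction medium with insulin, T3, IBMX, dexamethasone, indomethacin and rosiglitazone. The labels call the controls untreated, the methods describe a vehicle, and a growth protocol attached to the samples describes primary white preadipocytes instead. The 6 conditions had 1 library each, so that no spread between replicates is known. The ranges given for differences between 2 libraries cover counting error only and not the spread between cultures or library preparations.

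Retinol reaches cells bound to a carrier protein, is oxidized to retinaldehyde and, by the retinaldehyde dehydrogenases, irreversibly to retinoic acid. Retinoic acid binds the RAR receptors, which pair with RXR receptors on direct repeats in target genes, while intracellular binding proteins carry it and enzymes of the CYP26 family break it down. In adipose cells retinaldehyde and retinoic acid are known to influence adipogenesis and thermogenic gene expression, and Aldh1a1 is known as an enzyme of adipocytes.

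The promoter stretches of 3 of the genes are shown because their levels carry the main differences described here: Rarb was highest at D7 and is the classical direct target of retinoic acid, Crabp1 had the highest level of the 9 genes, and Aldh1a1 was lower with FGF8 on each day. Each stretch is the 100 bases before the RefSeq start, in GRCm38.p6, written in the direction of the gene. Capitals mark a direct repeat of 2 receptor hexamers spaced by 5 bases in Rarb (chr14:16575477-16575576, minus strand), the hexamer GGGCGG on either strand in Crabp1 (chr9:54764648-54764747, plus strand), and the receptor hexamer GGGTCA on the other strand in Aldh1a1 (chr19:20601868-20601967, plus strand).
Rarb: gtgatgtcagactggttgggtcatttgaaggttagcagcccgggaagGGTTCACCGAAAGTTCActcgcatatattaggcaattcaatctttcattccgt
Crabp1: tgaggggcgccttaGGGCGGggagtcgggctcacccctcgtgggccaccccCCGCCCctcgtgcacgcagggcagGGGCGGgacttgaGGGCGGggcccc
Aldh1a1: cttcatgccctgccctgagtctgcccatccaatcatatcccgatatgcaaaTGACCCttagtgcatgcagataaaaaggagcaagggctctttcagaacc

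The letters were searched on both strands over the 250 bases before each start. The receptor hexamer was AGGTCA in its usual form, or AGTTCA with another base inside, or the G-led forms GGGTCA as well as GGTTCA, and a direct repeat was 2 of these in the same direction. A direct repeat spaced by 5 was found in 29 of 32851 RefSeq windows (0.0883%), among them Rarb, whose match ran from 53 to 37 bases before the start. The receptor hexamer alone was present in 38.6% of all windows. GGGCGG, the core of the GC box, was present in 32.7% of all windows and was found 5 times in that of Crabp1 and 3 times in that of Cyp26b1, which held no receptor hexamer. The window of Aldh1a2 held none of these letters, the 6 genes with an entry had 10 windows in all, and Aldh1a3, Crabp2 and Rarres2 had none. A match is a description of the letters and not evidence of binding.

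The libraries held 16403254 to 38551551 counts, and no pair of libraries had identical counts. The 2 D0 libraries stood apart from the 4 later ones beyond differentiation genes: Xist, Ifi202b, Gbp2b, Ptchd1 and Mir6236, chosen after their values were seen, had at least 351 counts in each D0 library and at most 26 in any later one, while Hoxb13 had at most 1 count at D0 and 28 to 116 later. The 4 Y-linked genes Ddx3y, Eif2s3y, Kdm5d and Uty had 703 to 4907 counts in every library. The D0 libraries also differed between each other in these genes, with 2530 counts of Xist without and 5837 with FGF8, and 4837 against 935 counts of Gbp2b. In every comparison of D0 with a later day, differentiation and whatever else sets the D0 libraries apart cannot be told apart, and each such value below rests on the D0 libraries. In the comparison of FGF8 with untreated at D0, FGF8 and whatever else differs between these 2 libraries cannot be told apart either.

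The labelled cell type was checked against marker genes. The summed normalized counts of 6 adipocyte markers were 308 and 237 at D0, with Cidec and Cfd at 0 counts in both libraries, 228847 untreated and 449789 with FGF8 at D3, and 388606 and 451322 at D7, where as at D3 all 6 were detected. With FGF8, Fabp4 and Lipe were higher at D3 (2 of 6 compared, median log2 0.83), Lipe was lower at D0 (1 of 2) and Cfd lower at D7 (1 of 6). Of all genes compared, 3.80% were higher at D3, 10.8% lower at D0 and 8.74% lower at D7. The 6 preadipocyte markers summed to 130291 untreated and 29271 with FGF8 at D0, to 37585 and 10254 at D3 and to 29734 and 6869 at D7, with Dpp4 at 0 in 3 later libraries. The 5 macrophage markers summed to 137 to 273, with Adgre1 at 0 in all 6 libraries and Ptprc in 5 of them, and the 5 mural markers to 151 to 2184. The 5 endothelial markers summed to 1630 in untreated D0 and to 34.4 to 213 in the other 5 libraries, with Emcn at 0 in 4. With FGF8, 5 of 6 preadipocyte markers compared were lower at D0, 5 of 5 at D3 and 5 of 5 at D7, where 10.8%, 12.1% and 8.74% of all genes compared were. On the same days 2 of 2, 2 of 2 and 1 of 1 endothelial, 1 of 3, 2 of 3 and 2 of 3 macrophage and 1 of 2, 1 of 3 and 1 of 2 mural markers were lower. The shifts of these 3 lists rest on very few genes. The part of these shifts, adipocyte markers included, in the results on the retinoid genes was not tested. In bulk RNA, fewer cells of a type and less RNA per cell cannot be told apart.

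**Figure D1:**
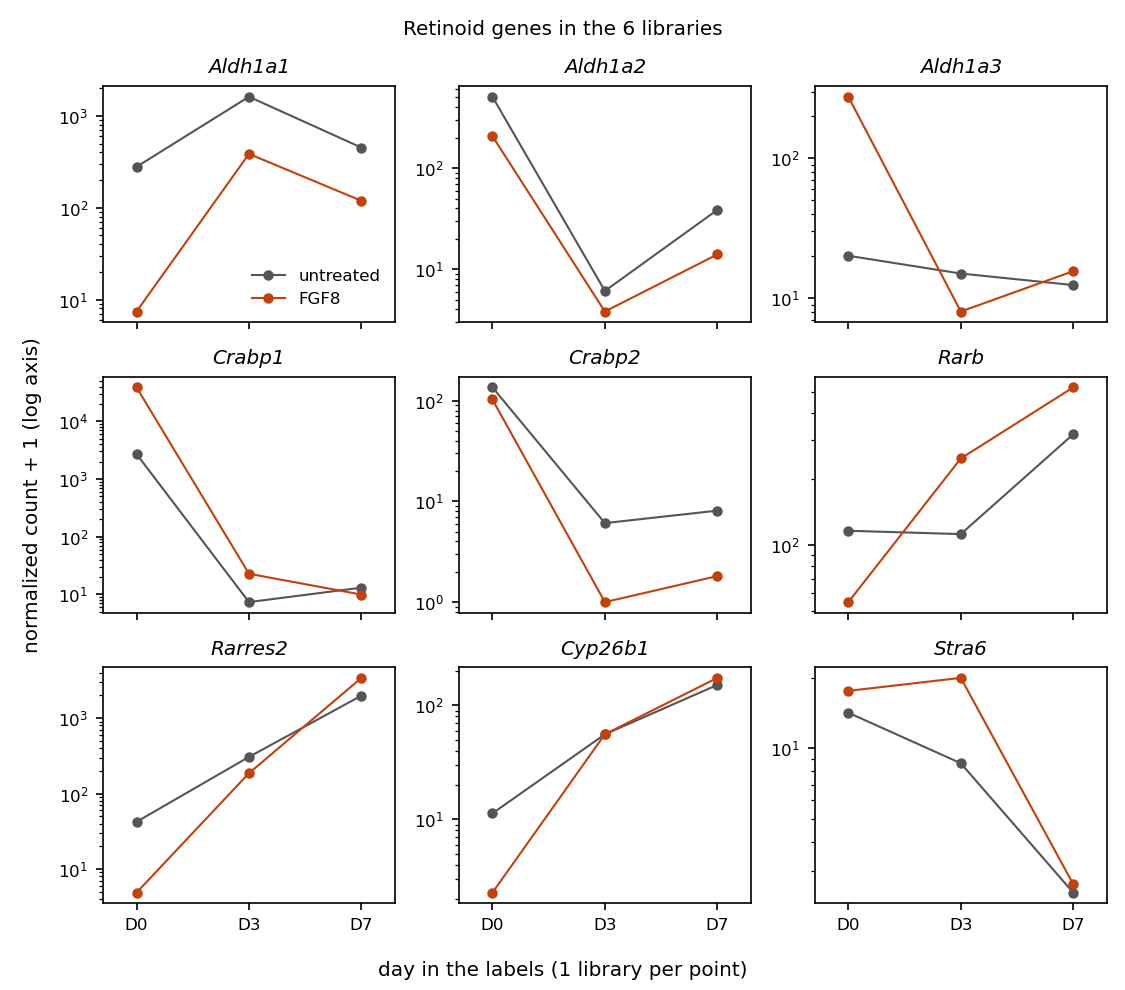
Normalized counts plus 1 of the 9 retinoid genes (log axis, scaled separately for each gene) by the day in the labels, with untreated libraries in gray and FGF8 libraries in orange, 1 library per point. Aldh1a1 lies lower with FGF8 on each day, Crabp1, Crabp2 and Aldh1a2 are high at D0 only, and Rarb, Rarres2 and Cyp26b1 reach their highest levels at D7.

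Values below are normalized counts, which are counts divided by the DESeq2 size factor of the library. Log2 fold changes were taken after adding 1 to each normalized count. The range given after them comes from an exact binomial (Clopper-Pearson) 95% interval for the count ratio, without the added 1. A gene is called higher or lower where the levels of a pair differ by 2-fold or more and average 20 or more.

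The question of the within-day comparison is what FGF8 left behind in the retinoid genes, right after treatment and after differentiation. At D0, 7 of the 9 genes reached the minimum, of which Aldh1a3 and Crabp1 were higher and Aldh1a1, Aldh1a2, Rarb and Rarres2 lower with FGF8, so that 6 were at least 2-fold different where 18.1% of the 12657 genes compared were (7.27% higher and 10.8% lower). At D3, 4 genes reached the minimum, Rarb was higher and Aldh1a1 lower, where 15.9% of the 12892 genes compared were different (3.80% higher and 12.1% lower). At D7, 5 genes reached it and Aldh1a1 and Aldh1a2 were lower, where 9.85% of the 13070 genes compared were different (1.12% higher and 8.74% lower). Aldh1a1, Aldh1a3 and Rarres2 at D0, and Aldh1a2 at D7, passed the minimum only through the library where they were high, so that these counts and the medians are descriptions. The 9 genes were also chosen with earlier results of these data known, so the shares of all genes give no test of them. The median log2 fold change of the genes compared was -1.08 at D0, -0.36 at D3 and 0.21 at D7, beside medians of 0.05, 0.08 and 0.08 over all genes.

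**Figure D2:**
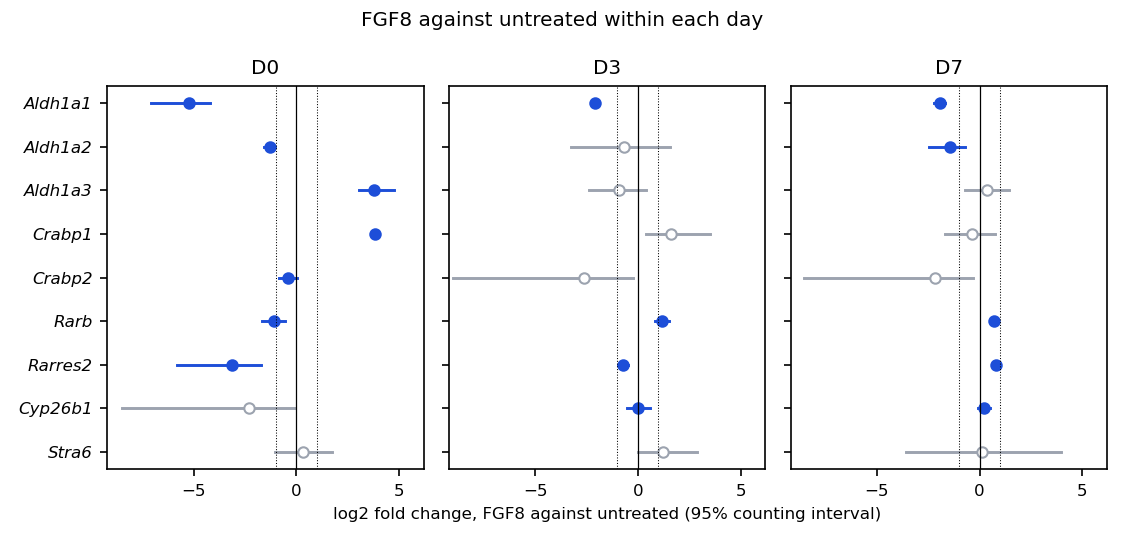
Log2 fold change of FGF8 against untreated for each gene within D0, D3 and D7, with lines for the 95% counting interval (lower ends below -9 drawn at -9) and dotted lines at 2-fold; filled points reached the minimum of 20 normalized counts and open gray points did not. The points of Aldh1a1 lie at -5.23, -2.07 and -1.93, those of Rarb at -1.08, 1.15 and 0.71.

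Stra6, the membrane receptor through which retinol enters cells from its plasma carrier, was close to the detection limit. It had 9 counts without and 13 with FGF8 at D0, 6 and 27 at D3 and 2 and 2 at D7, or 13.2, 16.6, 7.64, 19.0, 1.42 and 1.63 normalized counts. The untreated and FGF8 levels overlapped, no neighbours in the order of the 6 levels differed beyond counting error, and at D7 both libraries were at or under the floor of 3 counts. With FGF8 the 27 counts at D3 were followed by 2 at D7, a log2 change of -2.93 (-6.66 to -1.55). Stra6 (chromosome 9, 57970967 to 58063543, plus strand, GRCm39) has exons that overlap Islr on the opposite strand, which had 524 to 3273 normalized counts. The strand setting of the counting is not given in the sources used here, so reads of the pair may not have been kept apart.

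The retinaldehyde dehydrogenases make retinoic acid from retinaldehyde. Aldh1a1 (chromosome 19, 20469539 to 20622825, plus strand) had 278 normalized counts in untreated and 6.40 in FGF8 cells at D0, 1618 and 385 at D3, and 451 and 118 at D7. Each FGF8 library was below the untreated library of its day, while across days the groups overlapped, with FGF8 D3 above untreated D0. The reduction was 43.4-fold at D0 (log2 -5.23, -7.08 to -4.19), resting on 189 against 5 counts. It was 4.21-fold at D3 (-2.07, -2.22 to -1.93) and 3.83-fold at D7 (-1.93, -2.21 to -1.67). The summed preadipocyte markers were lower in the same 3 libraries. In both treatments Aldh1a1 was highest at D3, and all neighbours in its order of levels differed beyond counting error.

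Aldh1a2 (chromosome 9, 71122630 to 71203527, plus strand), the main retinaldehyde dehydrogenase of the early embryo, was a gene of the D0 libraries. Its normalized counts were 507 in untreated and 206 in FGF8 cells at D0, 5.09 and 2.81 at D3, where each library had 4 counts, and 37.6 and 13.0 at D7. The FGF8 library was lower at D0 by 1.29 on the log2 scale (interval of the log2 ratio -1.58 to -1.02) and at D7 with a log2 change of -1.46 (-2.44 to -0.70). At D3 the difference was not detectable at this depth, with a log2 value of -0.68 and an interval of -3.28 to 1.57. Mesothelial cells also express Aldh1a2. The 5 mesothelial markers summed to 157 and 74.3 normalized counts at D0, to 67.5 and 45.6 at D3 and to 407 and 189 at D7, with Upk3b at 0 in 4 of the 6 libraries. Krt19 made up 385 and 173 of the D7 sums, while Wt1 had 86.7 and 30.7 normalized counts at D0, 0 and 0.702 at D3 and 13.5 and 2.44 at D7, and Upk1b had 17.6 and 5.12 at D0 and at most 0.710 later. With FGF8, 1 of 2 mesothelial markers compared was lower at D0, 0 of 1 at D3 and 1 of 1 at D7, where 10.8%, 12.1% and 8.74% of all genes were. In the edgeR fit over the days, Msln had a log2 fold change of 0.39 with FGF8, while Wt1 had -1.63 and Krt19 -1.18. The part of these markers in the levels of Aldh1a2 was not tested.

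Aldh1a3 (chromosome 7, 66040638 to 66077850, minus strand) was the only one of the trio that was higher with FGF8 at D0. It had 19.1 normalized counts in untreated and 275 in FGF8 cells at D0, a 14.4-fold difference (log2 3.78, 3.04 to 4.78) from 13 and 215 counts. Levels were 14.0 and 7.02 at D3 and 11.4 and 14.6 at D7. FGF8 D0 was thus the only high library, and no neighbours among the other 5 differed beyond counting error.

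The composition of the trio shifted accordingly. Levels of different genes were compared per kilobase of the Ensembl canonical transcript. At D0, Aldh1a2 made up 79.1% and Aldh1a1 18.9% of the per-length sum in untreated cells, while with FGF8 Aldh1a2 made up 52.3%, Aldh1a3 46.9% and Aldh1a1 0.709%. As a share of counts, Aldh1a3 was 2.38% (1.27 to 4.03%) in untreated and 56.4% (51.3 to 61.5%) in FGF8 cells. At D3 Aldh1a1 was 98.0% and 95.7% of the per-length sum, and at D7 81.3% and 69.2%, so that Aldh1a1 led the trio in both treatments. The summed level per kilobase was lower with FGF8 on each day, at 237 and 146 normalized counts per kilobase at D0, 266 and 64.8 at D3, and 89.5 and 27.4 at D7.

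**Figure D3:**
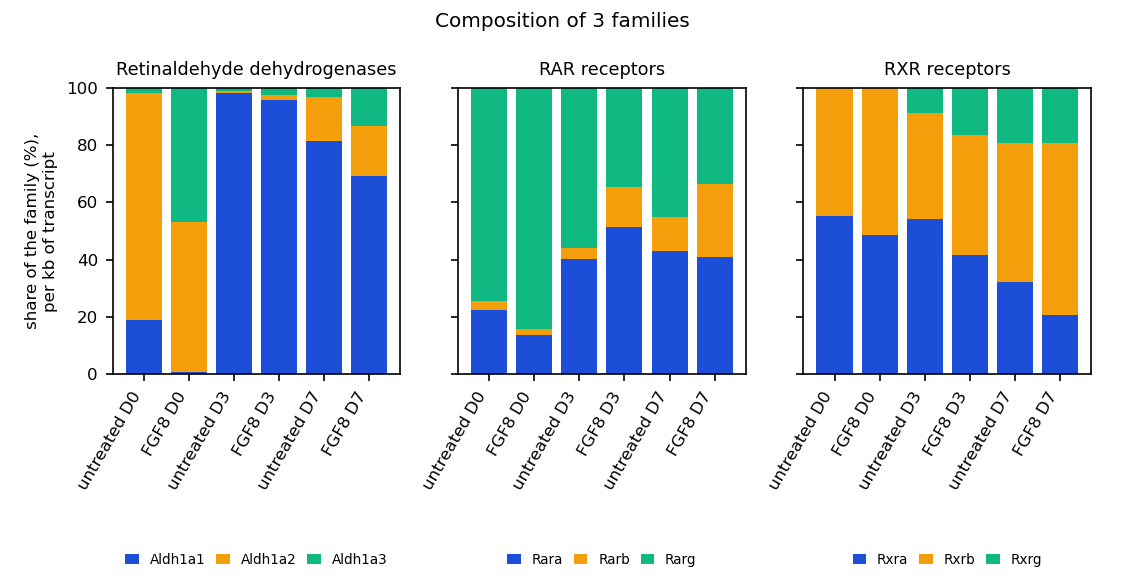
Share of each gene in the summed normalized count per kilobase of transcript (%, stacked bars) of the retinaldehyde dehydrogenases, the RAR receptors and the RXR receptors in the 6 libraries. Aldh1a3 takes 46.9% of its family in the FGF8 D0 library only, Aldh1a1 dominates from D3 on, and Rarb reaches 25.7% of the RAR sum in FGF8 D7.

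Crabp1 (chromosome 9, 54671171 to 54680403, plus strand), the cytoplasmic binding protein for retinoic acid, had the highest single value of the 9 genes. It had 2710 normalized counts in untreated and 38806 in FGF8 cells at D0, from 1845 and 30312 counts, a 14.3-fold increase (log2 3.84, 3.77 to 3.91). At later days it was nearly absent, with 6.36 and 21.8 normalized counts at D3 and 12.1 and 8.94 at D7. The value at D3 was higher with FGF8 on 5 and 31 counts (log2 1.63, 0.40 to 3.49), below the minimum of 20, and at D7 the interval of the log2 ratio ran from -1.67 to 0.75. From D0 to D3, Crabp1 was 426-fold lower in untreated cells and 1783-fold lower in FGF8 cells. The D0 libraries are the ones that stand apart, and the gene whose pattern was nearest to Crabp1 after Bnc1 was Xist.

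Crabp2 (chromosome 3, 87855973 to 87860683, plus strand), which delivers retinoic acid to the receptors, was likewise highest at D0 but did not pass 2-fold with FGF8. Its normalized counts were 135 in untreated and 102 in FGF8 cells at D0 (log2 -0.40, -0.85 to 0.05), 5.09 and 0 at D3, and 7.10 and 0.813 at D7. The FGF8 library was the lower one on each day, the D0 difference lay within counting error, and the later ones rest on few counts. At D3 there were 4 counts against 0, a ratio of 2.42 when the FGF8 library is set to the floor of 3 counts. The interval of the log2 ratio had no lower end and an upper end of -0.26. At D7 there were 10 counts against 1, a ratio of 8.73 with an interval of the log2 ratio from -8.57 to -0.31. Crabp1 held 95.3% (94.2 to 96.2%) of the counts of the pair at untreated D0 and 99.7% (99.7 to 99.8%) at FGF8 D0.

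Cyp26b1 (chromosome 6, 84548396 to 84570890, minus strand), which clears retinoic acid by hydroxylation, was lowest at D0 and highest at D7 in both treatments. It had 10.3 and 1.28 normalized counts at D0, 54.7 and 54.8 at D3, and 150 and 173 at D7, untreated first. The D0 pair rests on 7 counts against 1 (log2 -2.31, -8.50 to -0.05), and the intervals at D3 (-0.55 to 0.57) and D7 (-0.07 to 0.49) left out a 2-fold difference. Both libraries of each later day were above both libraries of every earlier day. In untreated cells the log2 change was 2.30 from D0 to D3 and 1.44 from D3 to D7, and in FGF8 cells 4.61 and 1.64.

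Rarb (chromosome 14, 5650540 to 6041094, plus strand), the receptor gene that retinoic acid itself induces, changed its direction with the day. It had 115 normalized counts in untreated and 53.8 in FGF8 cells at D0, 111 and 247 at D3, and 319 and 523 at D7. FGF8 D0 was the lowest and FGF8 D7 the highest of the 6 libraries, and the levels of the groups overlapped. FGF8 was 2.13-fold lower at D0 (log2 -1.08, -1.67 to -0.53), close to the threshold, 2.23-fold higher at D3 (1.15, 0.82 to 1.51) and 1.64-fold higher at D7 (0.71, 0.54 to 0.89). Whether the fold changes differ between days could not be tested with 1 library per condition. Untreated Rarb did not differ beyond counting error between D0 and D3 (-0.05, -0.51 to 0.41) and rose to D7 (log2 1.52, 1.19 to 1.87), while FGF8 cells gained 2.18 to D3 and 1.08 more to D7. Exons of Rarb overlap Top2b on the opposite strand, which had 3123 to 5711 normalized counts and the part of its reads in the values of Rarb was not tested.

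Among the RAR receptors, Rarb made up 3.24% and 1.98% of the per-length sum at D0, untreated and FGF8, 3.92% and 14.0% at D3 and 11.9% and 25.7% at D7. Rarg made up 74.4% and 84.3% at D0 and 45.1% and 33.4% at D7. Rxrg, one of the RXR partners, had 0 counts in both D0 libraries, 8.89% of the per-length RXR sum in untreated D3 and 16.5% in FGF8 D3.

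Rarres2 (chromosome 6, 48546630 to 48549762, minus strand), the gene of the adipokine chemerin, had the largest increase from D0 to D7 of the 9 genes. It had 41.1 normalized counts in untreated and 3.84 in FGF8 cells at D0, 305 and 185 at D3, and 1988 and 3419 at D7. FGF8 was lower at D0 (log2 -3.12, -5.78 to -1.73), from 28 and 3 counts, lower at D3 (-0.72, -0.98 to -0.47) and higher at D7 (0.78, 0.71 to 0.85), the latter both under 2-fold. All neighbours in the order of its 6 levels differed beyond counting error, and both libraries of each later day were above both of every earlier day. From D3 to D7, Rarres2 was 6.51-fold higher in untreated and 18.5-fold higher in FGF8 cells. Its exons overlap Lrrc61 on the opposite strand, with 136 to 426 normalized counts, more than Rarres2 itself at D0.

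The day steps give the change within each treatment. From D0 to D3 in untreated cells, 6 of 7 genes compared were at least 2-fold different, 3 in each direction, where 34.9% of all genes compared were (19.5% higher and 15.5% lower). In FGF8 cells 8 of 8 were, with 4 in each direction, where 46.2% of all genes were (24.1% higher and 22.0% lower). Aldh1a1, Rarres2 and Cyp26b1 were higher and Aldh1a2, Crabp1 and Crabp2 lower in both treatments, and in FGF8 cells Rarb was higher and Aldh1a3 lower too. From D3 to D7, 5 genes were different in untreated cells (13.2% of all genes, 8.77% higher and 4.42% lower), namely Aldh1a2, Rarb, Rarres2 and Cyp26b1 higher and Aldh1a1 lower, and 4 in FGF8 cells (13.6% of all genes, 8.16% higher and 5.40% lower), Rarb, Rarres2 and Cyp26b1 higher and Aldh1a1 lower. Of all genes different between untreated D3 and D7, 33.5% were lower, and 46.2% when libraries were scaled by their totals. Many passed the minimum only through the library where they were high, from D0 to D3 Aldh1a2, Crabp1, Crabp2 and Cyp26b1 in untreated cells and Aldh1a1, Aldh1a2, Aldh1a3, Crabp2, Rarres2 and Cyp26b1 in FGF8 cells, and from D3 to D7 untreated Aldh1a2, so that these counts too are descriptions. The steps share the D3 libraries, and here too the genes were chosen with earlier results of these data known.

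For contrasts common to the days or treatments, edgeR's quasi-likelihood test was used, with 2 residual degrees of freedom and Benjamini-Hochberg adjustment over 13868 genes. The 3 days stood in for replicates in the FGF8 contrast, and the 2 treatments did so in the contrasts of days. Crabp2 did not pass its filter, and 8 of the 9 genes were tested. The SE given for this test was derived as the absolute log2 fold change divided by the square root of the F statistic. For FGF8 none of the 8 passed an adjusted p of 0.05, where 1.10% of all genes did (0.0144% higher and 1.08% lower). At an unadjusted p under 0.05 there were 2, Aldh1a1 and Aldh1a2, where 3273 of the 13868 genes passed. DESeq2 called these 2 as well, among 1692 genes that it called in all, where edgeR called 152. Aldh1a2 had a log2 fold change of -1.32 (SE 0.288, edgeR adjusted p = 0.105, 0.0248 to 1.000 over 8 alternatives). It was lower in 3 of 3 pairs, but at D3 within counting error, with 4 counts in each library. Aldh1a1 was also lower in 3 of 3 pairs, with -2.71 (SE 0.635, edgeR adjusted p = 0.114, 4.64e-05 to 1.000 over 8 alternatives). When the D0 libraries were left out, edgeR called Aldh1a1 and Rarb, among 2230 genes that it called in all. This fit had fewer libraries and fewer residual degrees of freedom, so the 2 calls are a description.

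For D3 against D0 the same fit called 5 of the 8, where 45.8% of all genes passed (26.4% higher and 19.5% lower). Both treatments showed the direction for each. Lower at D3 were Aldh1a2 (log2 -6.34, edgeR adjusted p = 0.00286, 3.35e-20 to 0.0180 over 5 alternatives) and Crabp1 (log2 -10.06, edgeR adjusted p = 0.00570, 1.29e-13 to 0.0174). Higher were Cyp26b1 (log2 3.35, edgeR adjusted p = 0.0217, 6.05e-04 to 0.0552), Aldh1a1 (log2 3.50, edgeR adjusted p = 0.0231, 5.01e-06 to 0.0464) and Rarres2 (log2 3.57, edgeR adjusted p = 0.0264, 1.14e-05 to 0.0378). For D7 against D3 edgeR called none of the 8, where 0.0649% of all genes passed (0.0577% higher and 0.00721% lower). At an unadjusted p under 0.05 there were 4 (Rarres2, Cyp26b1, Stra6 and Aldh1a2), where 2969 of all genes tested passed. DESeq2 called 2 (Rarres2 and Aldh1a2), among 1319 genes that it called in all, where edgeR called 9. Without the D0 libraries, the smaller fit called 6 of the 8: Aldh1a1, Aldh1a2, Rarb, Rarres2, Cyp26b1 and Stra6. That fit called 3043 genes in all, and its share of all genes tested is not given here. It had fewer libraries and fewer residual degrees of freedom, so the 6 calls are a description.

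Other genes, of the pathway or related to it, were taken from 7 lists with 81 genes in all, chosen by role. They include 14 aldehyde dehydrogenases outside the retinaldehyde group and 3 chemerin receptors. FGF8 against untreated gave 6 higher and 13 lower of 56 compared at D0, where 7.27% and 10.8% of all genes were. It gave 6 and 9 of 57 at D3, where 3.80% and 12.1% were, and 1 and 7 of 56 at D7, where 1.12% and 8.74% were, with median log2 fold changes of -0.16, 0.11 and 0.05. The edgeR test of FGF8 called 1 of 61, the aldehyde dehydrogenase Aldh3b1, as lower, where 1.10% of all genes were called.

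Of the 13 genes of retinol transport and storage, none of 6 compared differed at D0, while 2 were higher and 1 lower of 5 at D3 and 1 was higher and 1 lower of 5 at D7. Of all genes compared, 18.1% were different at D0, 15.9% at D3 and 9.85% at D7. Rbp4, the secreted carrier of retinol, was higher with FGF8 at D3 (log2 1.11, 0.94 to 1.28) and D7 (1.23, 1.20 to 1.27), where it had 6548 and 15402 normalized counts. The small binding protein Rbp7 was at 0 counts in both D0 libraries and had 31.8 and 89.1 normalized counts at D3.

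Of the 19 retinol and retinaldehyde oxidoreductases, 3 were higher and 3 lower of 13 at D0, where 7.27% and 10.8% of all genes were. Only 1 was lower at each of D3 and D7, where 12.1% and 8.74% of all genes were. The alcohol dehydrogenase Adh1 had 604 and 42.2 normalized counts at D0 (log2 -3.81, -4.40 to -3.32) and 5639 and 5434 at D3. Dhrs3, which reduces retinaldehyde back to retinol and is known to be induced by retinoic acid, had 1754 and 268 at D0 (-2.71, -2.93 to -2.50) and 1770 and 3210 at D3 (0.86, 0.77 to 0.95). Rdh5 was lower at D0 (-1.33), and Dhrs9 (1.25) and Adh7 (1.32) were higher, as was Rdh10 (1.17), which lies outside the rule for named genes and was chosen after its values were seen. Adh7 was the lower one at D3 (-1.43) and D7 (-1.12).

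The list named retinoic acid breakdown, with 4 genes, held 1 with enough counts, Cyp1b1. It was lower with FGF8 on each day (log2 -3.32, -1.17 and -1.52). The name of the list is no evidence of what Cyp1b1 does in these cells, and breakdown was not measured. Cyp26a1, the best known enzyme that retinoic acid induces, did not reach the minimum. Among 10 receptors, corepressors and carriers, Rara was lower at D0 (-1.08), Rarg lower (-1.37) and Rxrg (1.05) and the lipid carrier Fabp5 (1.18) higher at D3, and none passed 2-fold at D7.

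Of the 18 retinoic acid target genes, none was higher and 4 of 12 were lower at D0, Tgm2 (log2 -3.01), Rarres1 (-2.46), Btg2 (-1.25) and Lefty1 (-1.10), where 7.27% of all genes were higher and 10.8% lower. Ret was under the minimum at D0, with 2 counts untreated and 27 with FGF8. At D3, 1 was higher and 3 lower of 13, with Tgm2, a transglutaminase, at 1.04 and Ret at -1.24, where 3.80% and 12.1% of all genes were. At D7 1 of 13 was lower, Lefty1 (-1.59), where 8.74% of all genes were. The receptors of the Rarres2 product had few counts: Cmklr1 had 64.6 and 168 normalized counts at D0 (log2 1.36, 0.87 to 1.90) and 49.7 and 10.6 at D7 (-2.13, -3.21 to -1.37), and Ccrl2 had 248 and 26.9 at D0 (-3.16, -3.94 to -2.55).

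**Figure D4:**
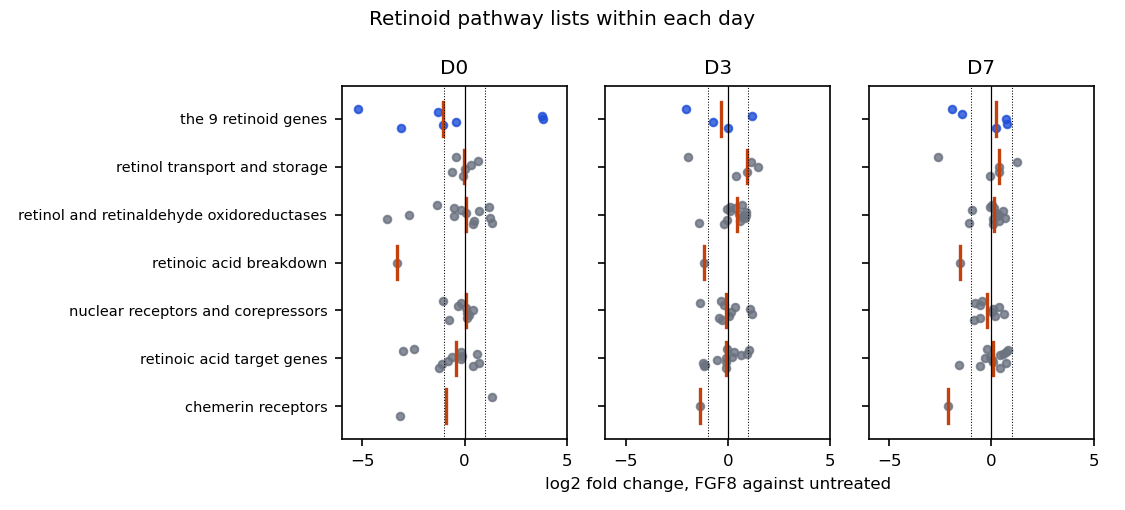
Log2 fold change of FGF8 against untreated within D0, D3 and D7 for the 9 retinoid genes (blue) and 6 pathway lists (gray), 1 point per gene that averaged 20 or more, red bars at the medians and dotted lines at 2-fold. Points spread widest at D0, from -5.23 for Aldh1a1 to 3.84 for Crabp1. Cyp1b1, the only point of the list named retinoic acid breakdown, lies below -1 in each panel.

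The genes with the pattern most like each of these, by the root mean square distance between centred log2 profiles over the 6 libraries among 13255 genes, included Gas6 (0.49) and Cxcl9 (0.50) for Aldh1a1, and Plekhb1 (0.31), Gm16897 (0.56) and Wt1 (0.60), 1 of the 5 mesothelial markers, for Aldh1a2. For Aldh1a3 they were Alcam (0.39), Slc7a3 (0.44) and Arhgap22 (0.48), which likewise had their highest counts in FGF8 D0. For Crabp1 even the nearest were distant, Bnc1 (1.02), Xist (1.23) and Ptchd1 (1.27). Genes near Crabp2 included Timp3 (0.46) and Myzap (0.51), and Rarb was nearest to Tlcd1 (0.21), Pmvk (0.23) and Acad12 (0.26). Rarres2 was nearest to 9330159F19Rik (0.65), Col27a1 (0.77) and Plxnb3 (0.77), and Cyp26b1 to Tmprss6 (0.34), Oscar (0.38) and Slc22a14 (0.38). Within the 9 genes the shortest distances were 0.94 between Aldh1a2 and Crabp2 and 1.13 between Rarres2 and Cyp26b1. Stra6 was below the mean of 20 normalized counts and was left out.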

How the data were processed

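RNA was sequenced as 6 bulk libraries, 1 per condition. The authors used TrimGalore for trimming, HISAT2 for alignment to GRCm39 and featureCounts for counting, and deposited raw counts per gene. Tool versions, annotation and strand setting are not given in the sources used here. Conditions were taken from the sample titles. Of 26264 symbols, 90.2% had a single entry in GENCODE vM39, which gave coordinates and canonical transcript lengths. Libraries were scaled with DESeq2 (version 1.42.0; median of ratios). Within pairs there was no test: the pseudocount was 1, and calls required 2-fold and a mean of 20 normalized counts. Intervals and the floor of 3 counts cover counting error only. Contrasts shared over days or treatments were tested with edgeR (version 4.0.16; TMM, filterByExpr, day and treatment as terms, adjusted p-value under 0.05), whose residual holds the treatment-by-day difference. The procedures were tried on simulated counts in which FGF8 had the same 4-fold effect on each day. There edgeR recovered 198 of 198 changed genes and called 8 others, and the 2-fold rule at D0 recovered 189 of 190 and called 72 others. These counts held no treatment-by-day difference, so the behavior of edgeR with such a difference was not examined. Alternatives were other scalings, pseudocounts, minima, folds, filters, DESeq2 tests, no day block and leaving out each day. All 9 genes were described. Pathway genes were named if at least 2-fold different within a day, up to 5 a list by largest change. Some genes that these rules name are not reported here. The 9 genes and the lists were chosen with earlier results of these data known. Promoter stretches come from RefSeq (GRCm38.p6).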

Additional observations from a re-analysis of the deposited data

Results flagged for a closer look

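The 34 genes considered were the 9 retinoid genes and 25 from the pathway lists, among them chemerin receptors and aldehyde dehydrogenases outside the retinaldehyde group. Of these 34, 11 had FGF8 against untreated fold changes in opposite directions on different days, each with a counting interval that left out 0. They were 2 of the 9 genes described (22.2%) and 9 of 25 pathway genes (36%), the latter named because they were at least 2-fold different within a day. Of all 3829 genes at least 2-fold different within a day, 19.9% did the same, and of all 13950 genes compared, 20.6%. With 1 library per condition, the difference between days was not tested for any of them. Fold changes at D0 rest on the D0 libraries, which stand apart and also differ between each other. Rarb had log2 fold changes of -1.08 at D0, 1.15 at D3 and 0.71 at D7. Rarres2, the chemerin gene, had -3.12 at D0, -0.72 at D3 and 0.78 at D7. For the enzymes of the first oxidation step and its reversal, Adh1 had -3.81, -0.05 and 0.06 in the same order of days, Dhrs3 had -2.71, 0.86 and 0.36, and Adh7 had the opposite order with 1.32, -1.43 and -1.12. For the target genes, Tgm2 had -3.01, 1.04 and -0.22, Btg2 had -1.25 at D0 and 0.42 at D7, and Ret had 3.18 at D0, on 2 against 27 counts and under the minimum of 20 normalized counts, and -1.24 at D3. The chemerin receptor gene Cmklr1 had 1.36, -1.37 and -2.13. Of the other aldehyde dehydrogenases, Aldh1l2 had 2.50, -0.16 and 0.37, and Aldh1l1 had -1.58, 0.24 and -1.08.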

How the results depend on the processing

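No paired analysis was possible because the labels give no replicate numbers, other than the pairing by day that the FGF8 contrast of edgeR has as its block. Of the fold changes of the 9 genes within days or treatments, the sign turned for a pair of values near 0, Cyp26b1 with FGF8 at D3 (0.00, -0.03 with TMM and -0.11 with library totals) and Rarb from untreated D0 to D3 (-0.05, 0.05 with TMM), and for no other under another scaling or pseudocount. The count of genes at least 2-fold different with FGF8 moved from 2 to 5 with no minimum and 1 at 4-fold for D3, and from 2 to 1 with a mean of at least 100, 4 at 1.5-fold and 0 at 4-fold for D7. For the day steps it moved from 5 to 2 at 4-fold (untreated D7 against D3), from 8 to 5 with a mean of at least 100 (FGF8 D3 against D0), and from 4 to 7 with no minimum and 1 at 4-fold (FGF8 D7 against D3). For FGF8 over the days, edgeR called 152 genes, 419 with no filter, 233 with library totals, 0 with no day block, and 0 to 2230 when each day was left out (2230 without D0, 0 without D3 and 0 without D7), and DESeq2 called 1692. Of the 9 genes this contrast called 0, or 2 by DESeq2 and 0 to 2 when a day was left out. D3 against D0 called 6355 genes and 3894 without D7. D7 against D3 called 9 genes, 268 with no filter, 1319 by DESeq2 and 3043 without D0, and of the 9 genes 0, 2 by DESeq2 and 6 without D0. The direction of the FGF8 contrast turned for Rarres2 (0.62 with no day block, and -1.64 to 0.08 when a day was left out), Cyp26b1 (0.08 and -0.75 to 0.09 in the same order), Aldh1a3 (-0.25 without D0 to 2.15 without D3) and Rarb (-0.17 without D3 to 0.89 without D0, where it passed the test), and that of D7 against D3 turned for Crabp1 (-0.01 with library totals, -0.40 without D0). The cause was not tested, other than that leaving out a day leaves fewer libraries. Scaling by library totals moved the median log2 fold change over all genes from 0.08 to -0.03 for FGF8 at D3, from -0.04 to -0.18 for untreated D7 against D3 and from -0.04 to -0.25 for FGF8 D3 against D0. Depth limits Stra6, Crabp2, Aldh1a2 at D3 and Cyp26b1 at D0, where single-digit counts leave wide intervals.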

Other observations

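The aldehyde dehydrogenases outside the retinaldehyde group, 14 genes that mostly serve folate, proline, amino acid and lipid metabolism, were counted separately. Of 13 compared, 2 were higher and 3 lower with FGF8 at D0, 1 and 1 at D3, and 0 and 2 at D7, where 18.1%, 15.9% and 9.85% of all genes compared were different. Aldh1l2, the mitochondrial enzyme that oxidizes formyl-tetrahydrofolate, had 3671 normalized counts in untreated and 20724 in FGF8 cells at D0 (log2 2.50, 2.44 to 2.56), while its cytosolic counterpart Aldh1l1 had 861 and 288 (-1.58, -1.81 to -1.36). Aldh18a1, which makes the precursor of proline, had 1833 and 5837 at D0 (1.67, 1.58 to 1.76). Aldh3b1 was lower on each day, with log2 fold changes of -1.36, -1.52 and -1.67. Of the genes in the pathway lists it was the 1 called by edgeR for FGF8 over the days (log2 -1.55, SE 0.186, edgeR adjusted p = 0.0476, 5.30e-08 to 0.732 over 8 alternatives). The call was lost in 4 of these alternatives, among them no day block, without D3 and without D7. Aldh5a1, of GABA breakdown, was higher at D3 (1.10, 0.95 to 1.25).

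Between D0 and D3, edgeR called 26 of 61 pathway genes as higher and 8 as lower at D3, where 26.4% and 19.5% of all genes were. Rbp4 (log2 3.52), Rbp7 (8.97), Dgat1 (4.07), which esterifies retinol among other substrates, and Fabp5 (4.62) were higher and Rarg (-1.28) lower. Of the 14 target genes tested, 5 were called higher and 2 lower. Hoxa4 (4.48), Hoxa5 (2.08) and Tbx5 (2.57), chosen after their values were seen, were among the higher ones. The 2 lower ones were Lefty1 (-2.90) and Meis1 (-1.28). These values rest on the D0 libraries, which stand apart.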
